A study of Mus musculus with 2 samples.

Results

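The genes of fibroblast growth factor (FGF) signalling were followed in cranial suture tissue of newborn mice: the FGF ligands, their receptors and co-receptors, the adaptors behind the receptors, and the inhibitors and transcription factors that the signal itself induces. They were chosen by gene symbol, with earlier results of these data known, and made up 38 of the 23930 targets measured. The symbols were the numbered Fgf genes other than Fgf23, the numbered Fgfr, Spry and Spred genes, and Fgfrl1, Kl, Klb, Fgfbp1, Fgfbp3, Frs2, Frs3, Dusp6, Etv4 and Etv5. Fgf15, Spry1, Spry3 and Fgfbp3 were not analysed here. Both samples were wildtype pups at postnatal day 3 and form 1 group of 2 libraries, called library 1 and library 2. Each held RNA of the coronal, sagittal and lambdoid sutures together. The strain and the number of pups behind a library are not given in the labels. The labels name suture stem cells as the cell type, but the protocol describes whole tissue. In bulk RNA, fewer cells of a type and less RNA per cell cannot be told apart.

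RNA was read with an amplicon panel that counts 1 short stretch per gene, and values are CPM, the reads of a target scaled to a common library total. Library 1 held 5663344 reads and library 2 held 15802610. A count of 0 is taken to allow up to 3 reads, a one-sided limit of 0.530 CPM in library 1 and 0.190 in library 2. The two-sided exact Poisson interval used for levels reaches a little higher at 0 reads, to 0.651 and 0.233 CPM. Amplicons differ in efficiency, so levels of different genes are given side by side, and tests compare the same amplicons between the libraries. Such tests compare 2 libraries and no conditions, and their intervals cover counting error only. The labels do not say that the libraries came from separate animals, so the spread between them may be technical.

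Secreted FGFs bind receptor tyrosine kinases at the cell surface together with heparan sulfate chains. The activated receptor phosphorylates the docking protein Frs2, which starts the RAS-ERK cascade. ERK in turn induces its own brakes, among them the Sprouty proteins and the phosphatase Dusp6, and the ETS transcription factors Etv4 and Etv5. Most FGF genes code for such ligands, whereas Fgf11 to Fgf14 code for homologous factors that stay inside the cell and act on sodium channels. In the skull, activating mutations of FGFR1, FGFR2 and FGFR3 are known causes of craniosynostosis, the early fusion of sutures.

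Most receptors and feedback inhibitors had higher CPM values than the secreted ligands, though Fgfrl1, Fgfr4 and Spred3 lay below the ligand Fgf1 in both libraries. A total of 28 genes (73.7% of the 38) reached 1 CPM in both libraries, against 55.0% of all targets, and 13 (34.2%) reached 10 CPM in both, against 34.6%. All 5 receptors, all 6 feedback inhibitors measured, both adaptors, both ETS factors and all 4 intracellular factors reached 1 CPM in both. Of the 16 secreted ligands 8 did so, and 7 stayed under 1 CPM in both. The 16 ligands summed to 70.5 CPM in library 1 and 71.5 in library 2. The 5 receptors summed to 664 and 918 CPM and the 6 inhibitors to 354 and 440 CPM.

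**Figure D1:**
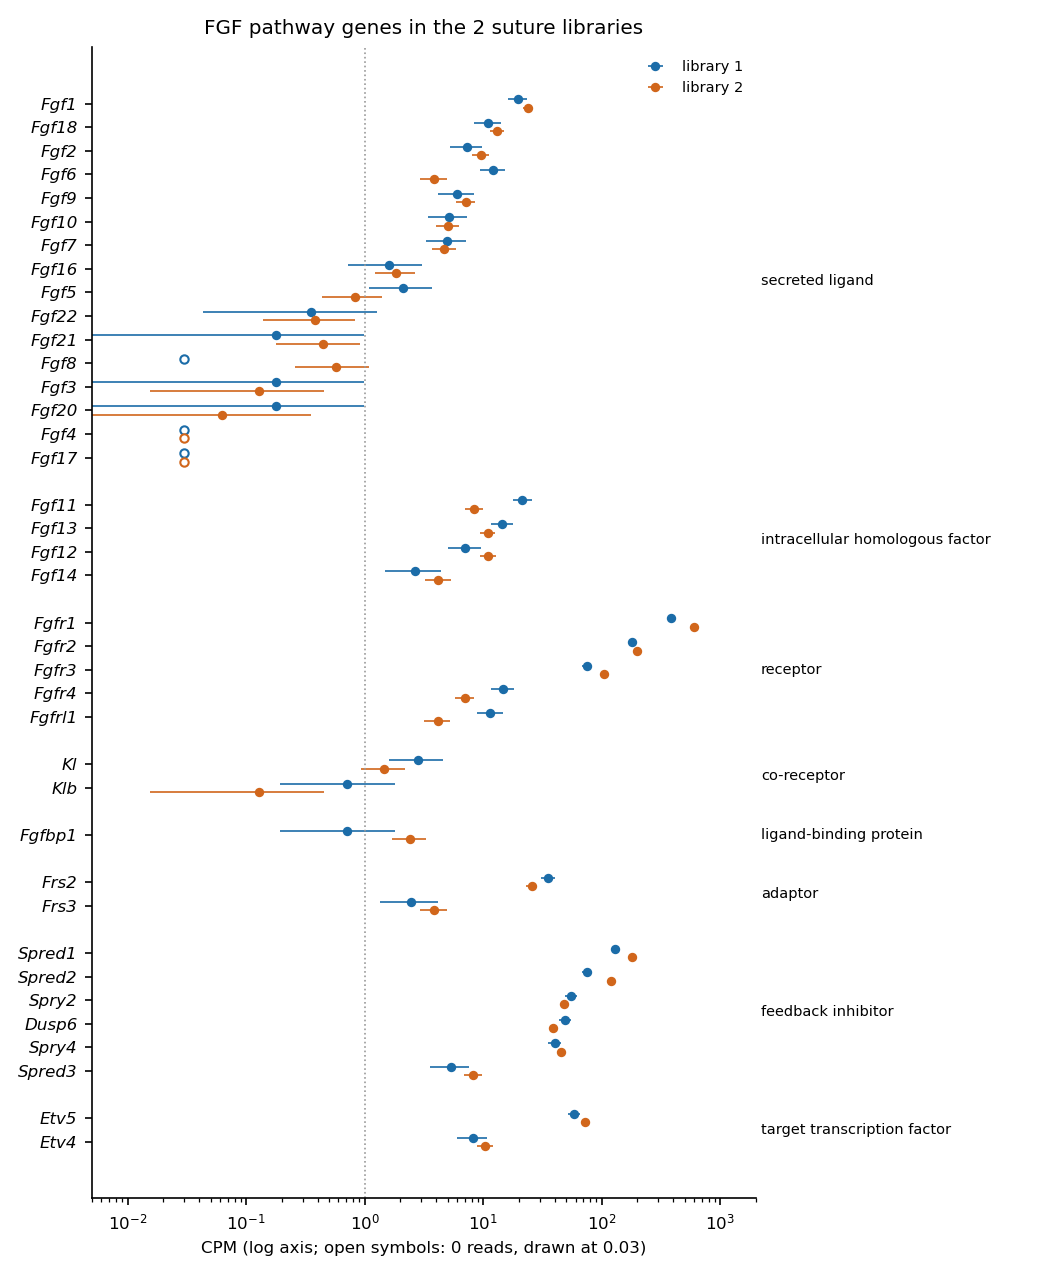
CPM of each FGF gene in library 1 (blue) and library 2 (orange) on a log axis, grouped by role, with exact 95% Poisson intervals of the reads. Open symbols mark 0 reads and the dotted line marks 1 CPM. Most receptors and feedback inhibitors lie to the right, and Fgf4 and Fgf17 have no read in either library.

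Among the secreted ligands Fgf1, which can bind all FGF receptors, had the highest values. It stood at 19.6 CPM in library 1 (exact 95% Poisson interval 16.1 to 23.6) and 23.9 in library 2 (21.6 to 26.5). The intervals overlap, and the gene was not called different. Fgf1 lies within the span of Arhgap26 (12.4 and 17.0 CPM), and the reads of overlapping genes may not be separable. Its relative Fgf2, a ligand long used to drive calvarial cells in culture, was at 7.24 and 9.49 CPM. The span of Fgf2 overlaps that of Nudt6 (0.706 and 0.443 CPM) over 5125 bases. Fgf18, a ligand of osteoblasts and chondrocytes in the developing skull, was at 10.9 CPM (62 reads) in library 1 and 13.2 CPM (208 reads) in library 2. Fgf18 lies on mm10 chromosome 11 from 33116970 to 33147400. Fgf9, which acts on the same skeletal cells, was at 6.0 and 7.15 CPM. These 4 ligands all had slightly higher values in library 2, and none of the differences passed the exact binomial test (adjusted p from 0.151 for Fgf1 to 0.661 for Fgf9, with 0.287 for Fgf2 and 0.409 for Fgf18).

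The mesenchymal ligands Fgf7 and Fgf10, which signal to epithelium through a splice form of Fgfr2, were close in both libraries. Fgf7 was at 4.94 and 4.68 CPM and Fgf10 at 5.12 and 5.0 CPM. The ratio of library 1 to library 2 was 1.06 for Fgf7, with an exact 95% interval from 0.658 to 1.65, and 1.02 for Fgf10, with an interval from 0.645 to 1.59. Both intervals include 1, and a ratio as far from 1 as those of Fgf1 or Fgf18 lies within them. Fgf7 lies within Fam227b, which had 0 reads in library 1 and 0.127 CPM in library 2. Fgf16, a ligand known from the heart, reached 1.59 and 1.84 CPM. Fgf5, a regulator of the hair cycle, gave 12 reads (2.12 CPM) in library 1 and 13 reads (0.823 CPM) in library 2, so it passed 1 CPM in library 1 only. The ratio of 2.58 had an interval from 1.07 to 6.12 and was not called (adjusted p = 0.0568, exact binomial test).

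Ligands of early embryonic signalling centres were near or at 0. Fgf4 and Fgf17, known from the limb bud and midbrain, had no read in either library and so lie under the one-sided limits of 0.530 and 0.190 CPM. Fgf8, a ligand of the facial primordia, had 0 reads in library 1 and 9 in library 2 (0.570 CPM), a difference that was not called (adjusted p = 0.260, exact binomial test). Fgf3 and Fgf20, both known from inner ear and tooth, had 1 read each in library 1, with 2 and 1 reads in library 2. Fgf22, a ligand of synapses, had 2 and 6 reads. The endocrine ligand Fgf21 had 1 and 7 reads. None of these levels in library 1 lies above the limit of 3 reads, so at this depth they cannot be set apart from 0 there.

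Fgf6, the ligand known from skeletal muscle, was the only secreted ligand called different between the libraries over all targets. Fgf5 was also called higher in library 1 when only targets whose mean reached 1 CPM were tested. Library 1 held 68 reads of Fgf6 (12.0 CPM, 9.32 to 15.2) and library 2 held 61 (3.86 CPM, 2.95 to 4.96). The intervals do not overlap. The ratio was 3.11, with an exact 95% interval from 2.17 to 4.47 (adjusted p = 2.22e-09, exact binomial test). The 6 skeletal muscle markers summed to 39216 CPM in library 1 and 11878 in library 2, a ratio of 3.30, and all 6 were higher in library 1. Their part in the Fgf6 difference was not tested.

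The 4 intracellular factors were all detected, and they did not share 1 direction. Fgf11 had the highest mean of them, 14.9 CPM, from 21.4 CPM in library 1 and 8.42 in library 2, a ratio of 2.54 (interval 1.97 to 3.27, adjusted p = 5.67e-12 by an exact binomial test). Fgf13 was at 14.5 and 10.9 CPM (adjusted p = 0.0967, exact binomial test). Fgf12 went the other way, with 7.06 CPM in library 1 and 10.9 in library 2 (adjusted p = 0.0357, exact binomial test), and this call was lost with scaling by the median of ratios (adjusted p = 0.0505). Fgf14 was at 2.65 and 4.18 CPM (adjusted p = 0.270, exact binomial test). Its span overlaps that of Itgbl1 (15.2 and 19.4 CPM) over 4425 bases. All 4 are known mainly from neurons, and the 4 neuron markers summed to 168 CPM in library 1 and 645 in library 2, with all 4 higher in library 2. Of the intracellular factors only Fgf12 was called in that direction, and the part of neurons in these values was not tested.

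Fgfr1, the main FGF receptor of mesenchyme, was the highest of all 38 genes. It stood at 382 CPM in library 1 (interval 367 to 399) and 605 in library 2 (593 to 617), and its mean ranked 186 among the 23930 targets. The level was 1.58-fold higher in library 2 (interval 1.51 to 1.66, adjusted p = 1.52e-88 by an exact binomial test). Fgfr2, the receptor mutated in Apert and Crouzon syndromes, was at 180 and 196 CPM. The difference of 1.09-fold (interval 1.02 to 1.17) passed the threshold narrowly (adjusted p = 0.0451, exact binomial test) and no longer did with trimmed mean (TMM) scaling (0.155) or median of ratios scaling (0.208). Fgfr3, a receptor of growth cartilage, was at 75 and 105 CPM, 1.40-fold higher in library 2 (interval 1.26 to 1.56, adjusted p = 1.44e-09 by an exact binomial test). The 7 chondrocyte markers summed to 1529 CPM in library 1 and 4621 in library 2, and all 7 were higher in library 2. Their part in the Fgfr3 and Fgfr1 differences was not tested. In the RefSeq annotation of GRCm38.p6 (mm10), Fgfr1 lies on chromosome 8 from 25518759 to 25575718, Fgfr2 on chromosome 7 from 130162451 to 130266808 and Fgfr3 on chromosome 5 from 33721724 to 33737068. The sources used here do not give the position of an amplicon within its gene, so the b and c splice forms of the receptors could not be separated.

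Fgfr4 and Fgfrl1 went the other way. Fgfr4, known from muscle progenitors, was at 14.7 CPM in library 1 and 6.96 in library 2, with a ratio of 2.11 (interval 1.56 to 2.83, adjusted p = 3.77e-06 by an exact binomial test). Fgfrl1, a receptor without the kinase domain, gave 65 reads in each library, or 11.5 and 4.11 CPM. The ratio was 2.79 (interval 1.95 to 4.0, adjusted p = 7.02e-08 by an exact binomial test). Both receptors thus moved in the direction of Fgf6 and of the muscle markers. The 3 endothelium markers summed to 554 CPM in library 1 and 404 in library 2. Of these, 2 were called higher in library 1 and 1 was not called, beside 32.5% of targets whose mean reached 10 CPM called higher in library 1. The part of either cell type was not tested.

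The mix of the 4 signalling receptors also differed, and their shares of reads do not depend on the library size. Amplicon efficiencies do not cancel in such a share, because those of all 4 receptors weight the reads it is taken from. The values are thus shares of reads and not of transcripts. Fgfr1 took 58.6% of their reads in library 1 (exact Clopper-Pearson 95% interval 57.0 to 60.2) and 66.2% in library 2 (65.5 to 67.0). Fgfr2 took 27.6% (26.2 to 29.1) and 21.5% (20.8 to 22.2). Fgfr4 took 2.25% (1.79 to 2.78) and 0.762% (0.627 to 0.918). All 3 shares differed between the libraries (adjusted p = 5.58e-17, 1.53e-14 and 1.16e-12 in the exact two-sided Fisher test, over 4 tests). Fgfr3 held 11.5% in both libraries, with an odds ratio of 1.00 and an interval from 0.891 to 1.12 (adjusted p = 1 in the exact Fisher test). Fgfr3 thus had a higher CPM in library 2 and a share of reads that was equal within that interval. Fgfr2 took a smaller share in library 2, while its CPM differed by 1.09-fold.

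**Figure D2:**
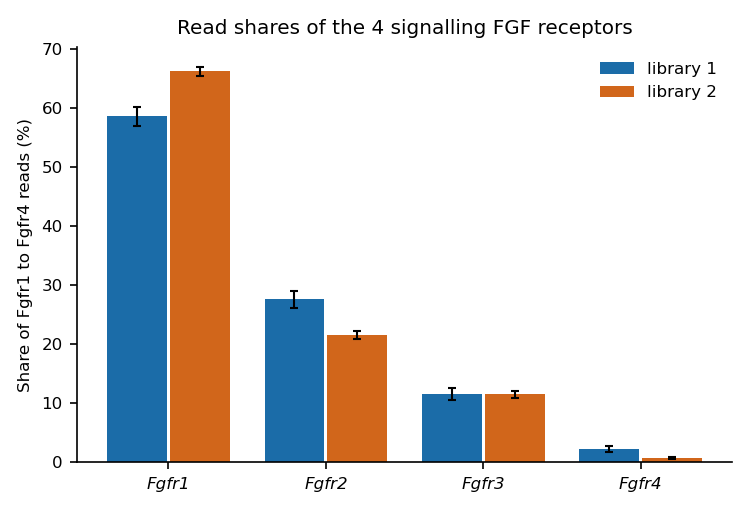
Share of the reads of Fgfr1 to Fgfr4 that each receptor took in library 1 (blue) and library 2 (orange), in percent (columns), with exact 95% intervals as error bars. The Fgfr3 share is 11.5% in both libraries, whereas the Fgfr1 share is 58.6% and 66.2%.

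Co-receptors and binding proteins were scarce. Kl, a co-receptor for endocrine FGF signalling, had 16 reads in library 1 (2.83 CPM) and 23 in library 2 (1.46 CPM; adjusted p = 0.111, exact binomial test). Klb, the co-receptor for Fgf21, had 4 reads in library 1 and 2 in library 2. Fgfbp1, a carrier that frees FGFs from the matrix and is known from epithelium, had 4 reads (0.706 CPM) in library 1 and 38 reads (2.41 CPM) in library 2. It was 3.4-fold higher in library 2, with a wide interval from 1.23 to 13.1 (adjusted p = 0.0366, exact binomial test). Of the docking adaptors, Frs2 was at 35.1 and 25.6 CPM, 1.37-fold higher in library 1 (interval 1.15 to 1.63, adjusted p = 0.00119 by an exact binomial test). Frs3, its relative known from brain, was at 2.47 and 3.86 CPM and was not called. Its span overlaps that of Prickle4 and of Tomm6.

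All 6 feedback inhibitors measured were expressed, and 5 of them exceeded 10 CPM in both libraries. Spred1, an inhibitor of RAS that works with neurofibromin, had the highest values, at 129 CPM in library 1 and 182 in library 2. Spred2 followed at 74.9 and 119 CPM. Both were higher in library 2, Spred1 1.40-fold (interval 1.29 to 1.53, adjusted p = 3.71e-16) and Spred2 1.59-fold (interval 1.43 to 1.77, adjusted p = 2.91e-18), each by an exact binomial test. Spred3 was at 5.30 and 8.23 CPM, a similar ratio that was not called (adjusted p = 0.0792, exact binomial test). The 3 Spred genes thus had ratios on the same side. The span of Spred3 overlaps that of Ggn (0 CPM in both libraries) over 1680 bases.

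The inhibitors that ERK signalling induces most directly did not share that direction. Dusp6, the phosphatase of ERK, was at 48.9 CPM in library 1 and 38.5 in library 2, 1.27-fold higher in library 1 (interval 1.10 to 1.47, adjusted p = 0.00414 by an exact binomial test). Spry2 was at 55.3 and 47.5 CPM, which was not called with scaling to the library total (adjusted p = 0.0679) and was called with TMM (0.0338) and median of ratios scaling (0.0279), all by an exact binomial test. Spry4 was at 39.9 and 45.2 CPM (adjusted p = 0.240, exact binomial test). Etv5, an ETS factor that FGF signalling induces, was at 58.3 and 72.1 CPM, 1.24-fold higher in library 2 (interval 1.09 to 1.40, adjusted p = 0.00198 by an exact binomial test). Its relative Etv4 was lower in level at 8.12 and 10.4 CPM and was not called (adjusted p = 0.322, exact binomial test). Among the genes followed, the known ERK targets Dusp6, Spry2, Spry4, Etv4 and Etv5 therefore showed no common direction. None of these differed by more than 1.28-fold. Outside this set, the ERK-responsive factor Egr1 was 1.77-fold higher in library 2. Of the 9 such factors measured, 1 was called higher in library 1, 2 in library 2 and 6 in neither.

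Over the 38 genes, 6 were higher in library 1 and 8 in library 2. The same test called 17.1% of all targets higher in library 1 and 20% higher in library 2, and 32.5% and 37.0% of the targets whose mean reached 10 CPM. Among the 15 FGF genes at that mean, 4 were higher in library 1 and 6 in library 2, shares near that background. With a difference of at least 2-fold as well, 4 genes were higher in library 1 (Fgf6, Fgfrl1, Fgf11 and Fgfr4) and 1 in library 2 (Fgfbp1), against 6.67% and 8.27% of all targets. The 30 genes whose mean reached 1 CPM had a median difference of -0.20 on the log2(CPM + 1) scale, library 1 minus library 2, beside -0.07 for all 14097 targets at such a mean. Of those 30 genes, 24 had a ratio within the 10th to 90th percentile of such targets with reads in both libraries (0.436 to 1.99). The 6 outside were Fgf5, Fgf6, Fgf11, Fgfr4 and Fgfrl1 toward library 1 and Fgfbp1 toward library 2. The called differences of Fgfr1, Fgfr3, Spred1 and Spred2 were precise in reads but lay inside this range.

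**Figure D3:**
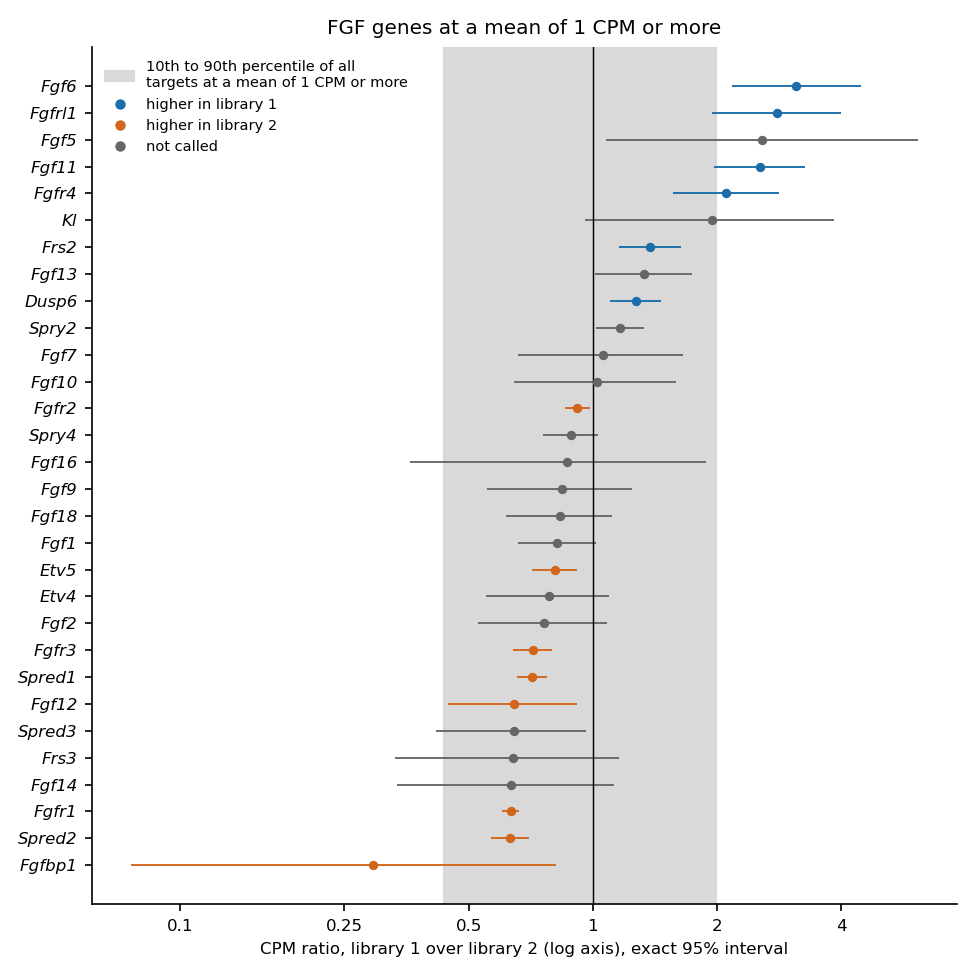
Ratio of CPM in library 1 to library 2 on a log axis for the 30 FGF genes with a mean of at least 1 CPM, with exact 95% intervals. Blue marks genes called higher in library 1, orange genes called higher in library 2 and dark grey genes not called. The grey band, from 0.436 to 1.99, holds the central 80% of all targets at that mean with reads in both libraries, and 6 FGF genes lie outside it.

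The question was whether the genes called at least 2-fold higher in library 1 resembled each other upstream. For this, the 250 bases before the transcript starts in the RefSeq promoter table (GRCm38.p6) were read. Some of these starts, that of Fgf11 among them, lie inside the annotated span of the gene and not at its outer end. A promoter was found for 30 of the 38 genes, and the 40 promoters counted include those of Spry1 and Fgfbp3, whose expression was not analysed here. The sequence CCGGAAGT, an extended ETS site to which Etv4 and Etv5 can bind, was searched as an exact match on both strands. It is the part in capitals. It occurred in 2.88% of 32851 promoters of this length and in 2 of 40 FGF promoters, those of Fgfrl1 and Frs2. Shorter or variant ETS sites were not searched and may occur in the sequences without capitals. The sequences of the 4 genes higher in library 1 by at least 2-fold follow together with that of Spred1, a gene called higher in library 2. Bases inside annotated exons were left out of the printed sequences, which shortens the Fgfr4 sequence. The counts over all promoters and over the 40 FGF promoters use the full 250 bases, exons included. For Fgf2, Fgf14 and Fgfr3 these bases lie wholly inside annotated exons.
Fgf6 (chr6:127015292-127015541, plus strand): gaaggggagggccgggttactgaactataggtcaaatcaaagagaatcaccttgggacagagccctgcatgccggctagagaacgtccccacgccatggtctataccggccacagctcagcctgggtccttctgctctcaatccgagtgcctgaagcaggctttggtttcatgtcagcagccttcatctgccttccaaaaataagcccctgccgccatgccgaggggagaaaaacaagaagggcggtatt
Fgfrl1 (chr5:108693979-108694228, plus strand): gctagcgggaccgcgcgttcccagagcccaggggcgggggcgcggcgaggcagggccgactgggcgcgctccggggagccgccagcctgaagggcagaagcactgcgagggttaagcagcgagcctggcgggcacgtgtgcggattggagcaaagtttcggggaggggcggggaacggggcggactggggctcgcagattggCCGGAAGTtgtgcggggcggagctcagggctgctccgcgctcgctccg
Fgf11 (chr11:69802281-69802530, minus strand): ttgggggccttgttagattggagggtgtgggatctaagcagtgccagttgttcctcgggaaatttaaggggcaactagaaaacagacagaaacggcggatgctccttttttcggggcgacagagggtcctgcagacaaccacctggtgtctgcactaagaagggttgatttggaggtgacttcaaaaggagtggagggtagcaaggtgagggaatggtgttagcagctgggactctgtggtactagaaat
Fgfr4 (chr13:55152568-55152639, plus strand): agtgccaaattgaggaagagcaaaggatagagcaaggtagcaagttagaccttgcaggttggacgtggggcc
Spred1 (chr2:117120821-117121070, plus strand): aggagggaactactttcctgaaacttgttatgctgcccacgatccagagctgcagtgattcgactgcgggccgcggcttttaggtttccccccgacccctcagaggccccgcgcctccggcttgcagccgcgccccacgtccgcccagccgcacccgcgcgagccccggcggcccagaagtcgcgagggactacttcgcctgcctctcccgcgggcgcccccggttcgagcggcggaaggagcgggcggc
The stretches printed hold 9 CpG dinucleotides for Fgf6, 5 for Fgf11 and 1 for Fgfr4, but 30 for Fgfrl1 and 31 for Spred1. The Fgfr4 stretch is only 72 bases long, and its full window holds 15. The 4 genes higher in library 1 thus did not share a CpG content. Genes with several starts, such as Fgf12 and Fgf13, count more than once in the medians that follow. Over the 40 FGF promoters the median was 17 CpG, against 6 for all promoters. It was 19 for genes with a mean of at least 10 CPM, 15.5 for those from 1 to 10 CPM and 9 for those under 1 CPM, each with a wide range (2 to 37, 3 to 30 and 4 to 21). Fgfr2, one of the highest genes, had 2 and Fgf4, with no read, had 21. These are descriptions of sequence and say nothing of binding.

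Markers of the sampled tissue were present, none of them under 1 CPM, and they were unequal too. All 5 osteoblast markers were called higher in library 2. Their sum, 120387 and 134860 CPM, is mostly the collagen gene Col1a1 (119187 and 132878 CPM), while the matrix gene Ibsp was 2.26-fold and the transcription factor Sp7 2.06-fold higher in library 2. Of the 7 suture mesenchyme markers, which summed to 252 and 337 CPM, 4 were called higher in library 2 and 1, Twist1, in library 1. Of all targets whose mean reached 10 CPM, 37.0% were called higher in library 2 and 32.5% in library 1. Msx1 was at 2.12 and 21.2 CPM, Six2 at 18.2 and 75.5 CPM and the hedgehog target Gli1 at 32 and 64.4 CPM. Fgfr1, Spred1 and Spred2 were called in the direction of most of these markers, whose part in those differences was not tested. Markers of other cell types were present and unequal as well. The 4 olfactory neuron markers summed to 94.3 CPM in library 1 and 490 in library 2, and the 4 tooth germ markers to 118 and 518 CPM. All 8 were higher in library 2. None of the defining markers in these lists was at 0, and the part of these cell types in the FGF values was not tested.

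**Figure D4:**
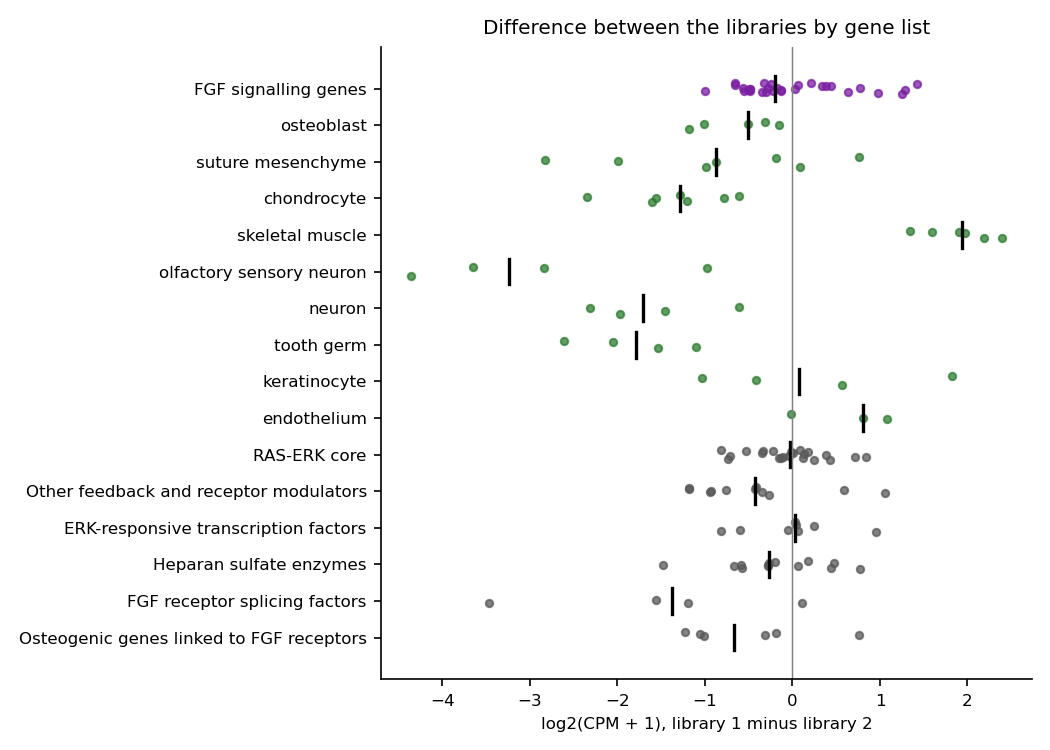
Difference between the libraries on the log2(CPM + 1) scale, library 1 minus library 2, for each gene with a mean of at least 1 CPM (points) and its median (black line) in the FGF signalling genes (purple), the cell type marker lists (green) and the pathway lists (grey). The FGF genes centre on -0.20, while the skeletal muscle markers lie at 1.94 and the chondrocyte markers at -1.28.

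Downstream of the receptors, all 22 genes of a list of RAS-ERK core genes exceeded 10 CPM in both libraries. The list also holds Akt1, Pik3ca and Pik3r1 of the PI3K-AKT branch. Its highest genes were the kinase Akt1 (458 and 418 CPM) and the adaptors Shc1 (378 and 280 CPM) and Grb2 (242 CPM in each). The exact binomial test called 5 of them higher in library 1 and 7 in library 2, left 10 not called, and the list's median difference was -0.03. Among all targets whose mean reached 10 CPM the test called 32.5% and 37.0%, so these counts are not above that background. Of the 9 ERK-responsive transcription factors measured, 1 was higher in library 1 and 2 in library 2, beside the same background, and 8 reached 1 CPM in both. Egr1 led them at 165 and 291 CPM. Of 12 other feedback genes and receptor modulators, 1 was higher in library 1 and 7 in library 2, with a median difference of -0.43. The test called 17.1% and 20% of all targets in these directions. Among targets whose mean reached 1 CPM, as 11 of these 12 genes did, it called 3774 and 4632 of 14097. The 7 became 5 with median of ratios scaling. The ERK phosphatase Dusp4 was at 8.30 and 20.1 CPM and Dusp2, a phosphatase of immune cells, at 4.77 and 1.77 CPM, which were called in opposite directions.

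Enzymes that build and trim heparan sulfate, the chains that hold FGFs to their receptors, were all detected. The highest of the 13 were Ndst1 (139 and 102 CPM), Ext2 (105 and 100 CPM) and Hs6st1 (77.3 and 117 CPM). The exact binomial test called 3 of them higher in library 1 and 4 in library 2, and 6 were not called, beside 17.1% and 20% of all targets and 32.5% and 37.0% of those whose mean reached 10 CPM. With TMM or median of ratios scaling the 4 became 3. Hs3st1 had the only 2-fold call, at 3.88 and 12.7 CPM. Of 6 osteogenic genes linked to FGF receptors, 4 were higher in library 2 and 1, Twist1, in library 1, where the test called 37.0% and 32.5% of targets whose mean reached 10 CPM. Spp1, Alpl and Runx2 had the highest levels, and Runx2, the master factor of osteoblasts, was at 123 and 256 CPM. Twist1, a repressor of Runx2 function whose loss causes craniosynostosis, was at 124 and 72.8 CPM.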

How the data were processed

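RNA of 2 cranial suture samples was profiled. Per the labels' protocols, total RNA was purified with a kit and libraries were made with the Ion AmpliSeq mouse transcriptome panel. Of the processing before deposit, the submitters' processing notes name only the build, mm10, and the sources used here do not give an aligner, a counter or a filter. Values for 23930 targets were deposited in CPM by the authors. The steps between values were those of whole reads (100% of values in both libraries, within 0.01 of a read), so reads were recovered: 5663344 in library 1 and 15802610 in library 2.

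Recovered reads of every target were compared between the libraries with an exact two-sided binomial test, adjusted by Benjamini and Hochberg over all 23930 targets at 0.05, which called 4084 targets higher in library 1 and 4779 in library 2. The function was tested on simulated data. Differences are on the log2(CPM + 1) scale (pseudocount 1 CPM), which understates the change of low genes. Read ratios carry exact conditional 95% intervals, levels exact Poisson intervals and shares Clopper-Pearson intervals. Panel reads carry no molecular identifiers. Scaling factors came from edgeR 4.0.16 (TMM) and from the median of ratios; Python used scipy 1.17.1. Gene positions, promoters and overlaps came from RefSeq (GRCm38.p6), where all 38 symbols matched, and exons from GENCODE M21. The genes and lists were chosen with earlier results of these data known. All 38 genes are named, and of each other list the 3 highest genes and those called with at least a 2-fold difference could be named. Neighbouring and overlapping genes fall outside it and were picked with their values in view. No test between conditions was possible with 1 group.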

Additional observations from a re-analysis of the deposited data

How the results depend on the processing

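With 1 group of 2 libraries no variation between animals could be estimated, so every call compares 2 libraries. The numbers of genes detected, of ligands detected and of well-measured genes stayed within 1.5 times of the main counts at the other CPM levels and without either library: without one library, 29 genes were detected in each case, 8 to 9 secreted ligands and 15 to 17 genes at 10 CPM. Genes higher in library 1 numbered from 4 to 8 over the alternatives and genes higher in library 2 from 1 to 9. The latter count fell from 8 to 4 when a 1.5-fold difference was also required and to 1 when a 2-fold difference was required. This follows from the construction of the rule, which drops small differences. The median difference of -0.20 ranged from -0.21 to -0.13 over its alternatives. The difference in the Fgfr3 share, library 1 minus library 2, was -0.0024 percentage points, and it turned to 0.174 points among Fgfr1, Fgfr2 and Fgfr3 only (adjusted p = 0.772, exact Fisher test). Both values lie within counting error. The log2 ratio of the scaling factors was 0.03 for TMM and 0.04 for the median of ratios, and differences of low genes on the log2(CPM + 1) scale moved by less. When only targets whose mean reached 1 CPM were tested, Fgf5 and Spry2 were also called higher in library 1 and Spred3 in library 2. No paired analysis was possible because the samples form 1 group. Depth limits the lowest genes: in library 1, levels under 0.530 CPM rest on fewer than 3 reads.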

Other observations

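Fgf11 lies 101 bases from Chrnb1 on chromosome 11 in the RefSeq annotation, and both genes were higher in library 1. Chrnb1, which codes for a subunit of the acetylcholine receptor of muscle, was at 60.6 CPM in library 1 and 22.4 in library 2, with a ratio of 2.70 (adjusted p = 3.47e-36, exact binomial test). The ratio of Fgf11 was 2.54. Whether reads of the one gene enter the count of the other was not tested.

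Of 4 splicing factors that choose between the epithelial and mesenchymal forms of the FGF receptors, 3 were higher in library 2 by at least 2-fold and Rbfox2 was 1.08-fold higher in library 1. Over all targets, the test called 8.27% higher in library 2 by at least 2-fold. Esrp1, which favours the epithelial form, was at 1.59 CPM in library 1 and 27.5 in library 2 (adjusted p = 1.10e-43, exact binomial test), and Esrp2 at 0.883 and 4.56 CPM (adjusted p = 6.12e-05, exact binomial test). Ptbp1 was at 49.4 and 114 CPM and Rbfox2 at 254 and 234 CPM. The keratinocyte markers did not share 1 direction: Krt5 was at 19.8 and 41.4 CPM and Krt14 at 22.2 and 5.57 CPM. The 4 tooth germ markers and the 4 olfactory neuron markers were all higher in library 2, among them Omp (11.1 and 247 CPM) and Cnga2 (1.24 and 27.0 CPM). The part of either cell type in the Esrp1 difference was not tested.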
